A study of Homo sapiens with 4 samples.

Results

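The 7 genes described here are large human genes that lie over common fragile sites: FHIT, WWOX, MACROD2, IMMP2L, DLG2, LRP1B and CNTNAP2. They were taken by name, with their limits on the hg19 build, and together they span 11.9 Mb on 6 chromosomes. Of the 262748 regions in the 3 deposited lists, 593 overlapped these genes by at least 1 bp. They comprised 61 of 78859 regions enriched in nascent strands in WT cells, 524 of 159667 enriched in nascent strands in KO cells, and 8 of 24222 regions bound by RepID.

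Nascent strands, the short new DNA strands that mark where replication has begun, were isolated from asynchronous cultures of HCT116, a colorectal carcinoma cell line. WT cells had unaltered RepID. KO cells were HCT116 cells depleted of RepID with CRISPR-Cas9, through a guide against the fourth exon of the RepID gene and puromycin selection of stable cells, and genomic DNA of HCT116 was the control for calling the regions of both lists. RepID binding was mapped by ChIP-Seq with an antibody against FLAG in the osteosarcoma cell line U2OS carrying RepID fused to a triple FLAG tag, so that binding and initiation were measured in different cell lines. There was 1 library per condition and no replicate, so no difference between WT and KO cells was tested, and the intervals below are exact binomial 95% intervals that cover counting error only. Sequencing depth is unknown, since the lists hold regions without read numbers, and a KO list that is longer than the WT list over the whole genome cannot be told apart from a difference in depth or calling. The deposited KO list also differs in length from the KO peak set that the study describes, which is shorter than the WT set, and how they relate is not given in the sources used here. Every comparison of KO with WT cells below therefore holds for the deposited lists, and the main ones are also given with the KO list shortened by score to the length of the WT list and below it.

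Replication origins are the sites where the DNA helicase is loaded and new strands begin, and RepID is a chromatin-associated protein that binds a subset of them. Common fragile sites are long chromosome regions that break or show gaps when replication is slowed, and many of them contain a very long gene. They are known for late replication and for long stretches with few origins, so that a single pair of forks must travel far, and for transcription units so long that transcription and replication meet. FHIT and WWOX, both regarded as tumour suppressors, lie at the most frequently broken of these sites in lymphocytes, FRA3B and FRA16D.

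In WT cells all 7 genes held fewer origins per Mb than the rest of their own chromosome. This direction alone is common, since 61% of the 1 Mb windows of the autosomes also fell below the mean of their chromosome. The median density ratio of gene to rest of chromosome was 0.0989, with a range from 0.0212 to 0.619. Summed over the genes and set against the number that the rest of each chromosome would give for their length, the ratio was 0.162 (95% interval 0.124 to 0.207).

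LRP1B, which encodes a receptor of the low density lipoprotein receptor family, had the sparsest WT list. It held 1 origin in 1900 kb, or 0.526 per Mb (0.0133 to 2.93) against 24.8 per Mb in the rest of chromosome 2. None of the 125 windows of the same length laid along the rest of that chromosome held so few. IMMP2L, which encodes a subunit of the inner mitochondrial membrane peptidase, also held 1 origin, at 1.11 per Mb (0.0281 to 6.19) against 25.8 on chromosome 7. FHIT, which encodes a hydrolase of dinucleoside polyphosphates, held 2, at 1.33 per Mb (0.161 to 4.81) against 19.7 on chromosome 3. As few WT origins were held by 12 of 172 windows of the length of IMMP2L and by 7 of 129 of that of FHIT. The FHIT origins were at chr3:59756201-59759600 (score 108) and chr3:61196201-61197800 (score 65). In these 3 genes almost the whole transcription unit was thus without a WT region.

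A second set had few but scattered origins. CNTNAP2, a neurexin-family adhesion protein of neurons, had 9 WT origins, or 3.91 per Mb (1.79 to 7.41) against 25.8. DLG2, a scaffold protein of synapses, also had 9, or 4.14 per Mb (1.90 to 7.86) against 32.3 on chromosome 11. MACROD2, which removes ADP-ribose from proteins, had 10, or 4.86 per Mb (2.33 to 8.92) against 49.2 on chromosome 20, and none of 27 windows of its length held as few. For CNTNAP2 and DLG2, 9 of 66 and 9 of 59 windows did. The intervals of these 3 genes overlapped one another.

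WWOX stood apart from the other 6 genes. It encodes an oxidoreductase with WW domains and held 29 WT origins at 26.1 per Mb (17.5 to 37.3) against 42.1 on chromosome 16, and 20 of 70 windows held as few. Without WWOX the summed WT ratio was 0.0967.

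The flanks of the genes held more WT origins than the genes did. In the 1 Mb on either side, the WT density was higher than in the gene for all 7 genes. Its median was 14.5 per Mb against 3.91 per Mb in the genes. The flanks were themselves sparser than the rest of the chromosomes, where the median was 25.8 per Mb. The share of other windows below their own flanks was not computed. The WT regions that were present in the genes were also narrower and lower in score than elsewhere, at a median of 1400 bp against 2400 bp in the rest of the 6 chromosomes and a median score of 64 against 121. As a result the genes differed more in covered length than in number, and the WT list covered a median of 0.364% of a gene.

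**Figure D1:**
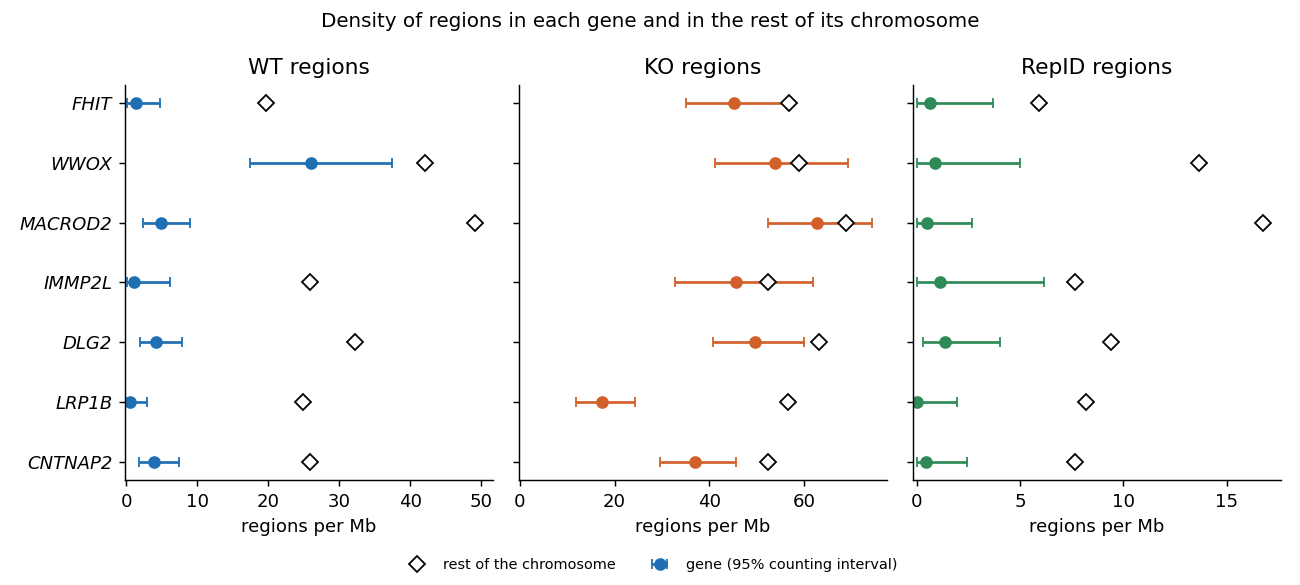
Regions per Mb in each of the 7 genes (filled circles, with exact binomial 95% counting intervals) and in the rest of its chromosome (open diamonds), for the WT, KO and RepID lists. WT circles lie far to the left of their diamonds in 6 genes and closer in WWOX, KO intervals reach the diamond in 4 genes, and RepID circles stay at or below 1.38 per Mb.

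In KO cells the same genes held more regions, and 4 of the 7 had counting intervals that reached the density of their chromosome. The KO density lay between 17.4 and 62.7 per Mb, against 52.4 to 68.8 per Mb in the rest of the chromosomes, and the median ratio was 0.797. All 7 genes were still below the rest of the chromosome, as were 45% of the 1 Mb windows of the autosomes. The summed ratio was 0.743 (0.681 to 0.809).

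MACROD2, with 129 KO regions and 62.7 per Mb (52.5 to 74.3) against 68.8, and WWOX, with 60 and 53.9 per Mb (41.2 to 69.3) against 58.8, had intervals that held the value of their chromosome. The same was true of IMMP2L, with 41 regions and 45.6 per Mb (32.7 to 61.8) against 52.4, and of FHIT, with 68 and 45.3 per Mb (35.2 to 57.3) against 56.8. For these 4 genes the KO density could not be told from that of the chromosome by counting error.

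The counting intervals of DLG2, CNTNAP2 and LRP1B stayed below the value of their chromosome. DLG2 had 108 KO regions, or 49.7 per Mb (40.8 to 59.9) against 63.1, and CNTNAP2 had 85, or 36.9 per Mb (29.5 to 45.5) against 52.4. As few KO regions were held by 15 of 59 windows of the length of DLG2 and 10 of 66 for CNTNAP2. The counts were 6 of 27 for MACROD2, 15 of 70 for WWOX, 36 of 129 for FHIT and 63 of 172 for IMMP2L. By this measure DLG2 was not set apart from MACROD2 and WWOX. LRP1B was the exception among the 7, with 33 regions or 17.4 per Mb (12.0 to 24.4) against 56.7, and only 3 of 125 windows of its length held as few KO regions. LRP1B was thus the sparsest of the 7 genes in both nascent-strand lists and the gene without a RepID region.

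The ratio of KO to WT regions was at least 2 in 7 of 7 genes, against 65.1% of the 1 Mb windows of the autosomes. It was at least 10 in 5 of 7 genes, against 18.4% of the windows. The ratios were 41 in IMMP2L, 34 in FHIT, 33 in LRP1B, 12.9 in MACROD2, 12 in DLG2, 9.44 in CNTNAP2 and 2.07 in WWOX, where the rest of the chromosomes gave 1.40 to 2.88. Relative to the rest of the chromosomes, the KO to WT ratio over the 7 genes was 4.60 (3.52 to 6.10). A KO list shortened by score to the length of the WT list still placed 209 regions in these genes against 61 WT regions, and the relative ratio was 3.75. Shortened further, to 75% of the WT number, it placed 145 there and the relative ratio was 3.50.

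Other windows with few WT origins also held many KO regions. Windows of 1 Mb with 0 to 1 WT region held a median of 29 KO regions (quartiles 19 and 39, 106 windows), those with 2 to 5 held 40 (26 and 52, 571 windows), and those with 30 or more held 72 (60 and 84, 1008 windows). FHIT and IMMP2L, with 1.33 and 1.11 WT origins per Mb, fell between the first 2 groups. Their KO densities were above the upper quartile of the first group but inside the quartiles of the second. LRP1B was below the lower quartile of the first group. In each of these genes the counting interval held that quartile of the first group. MACROD2 lay above the upper quartile of the 2-to-5 group, while DLG2 lay inside its quartiles and CNTNAP2 just under its median. High KO counts beside few WT origins were thus also found in windows elsewhere, and no test set the genes apart from them.

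**Figure D2:**
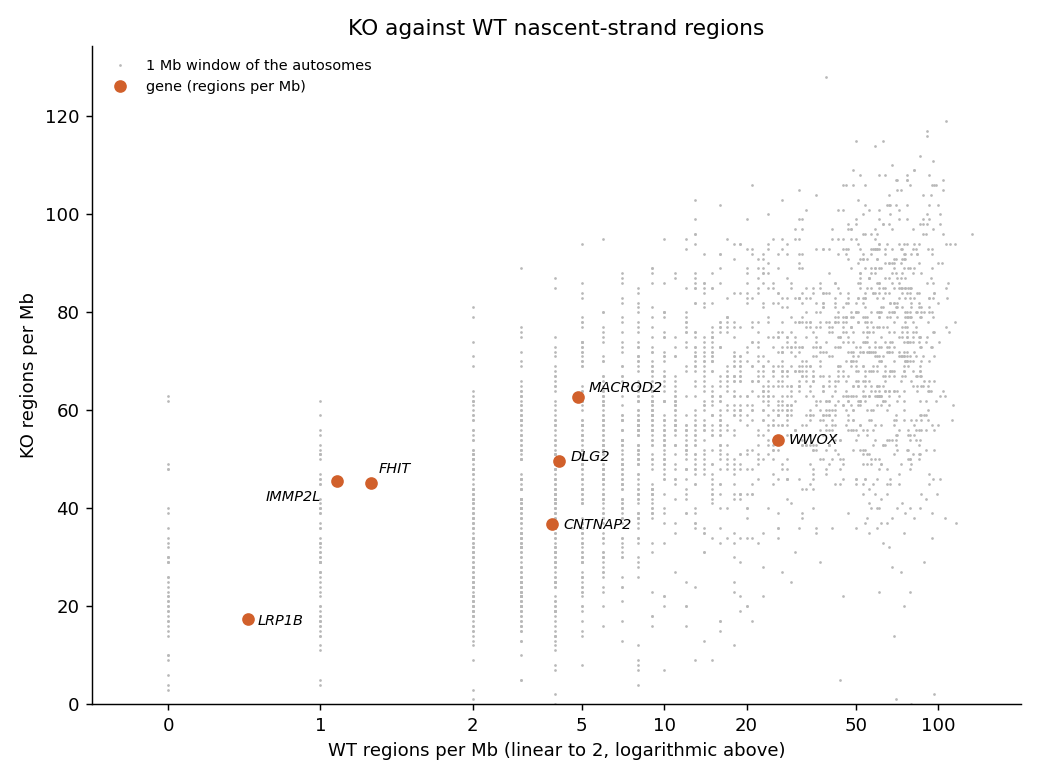
KO against WT regions per Mb for the 1 Mb windows of the autosomes (grey points) and for the 7 genes (orange circles), with a horizontal axis that is linear up to 2 and logarithmic above. The genes fall inside the cloud of windows, with LRP1B at 17.4 KO regions per Mb at its lower left and WWOX in its middle.

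The longest stretch without a WT origin reached across most of the transcription unit in several genes. It covered 1898.4 kb of LRP1B, 1436.6 kb of FHIT, 1291.6 kb of CNTNAP2, 898 kb of IMMP2L, 762.6 kb of DLG2, 632.8 kb of MACROD2 and 395.6 kb of WWOX, with a median of 898 kb. These stretches took up 99.9% of LRP1B and IMMP2L and 95.6% of FHIT. No window of the length of LRP1B in the rest of chromosome 2 held so long a stretch, and the longest there was 1354 kb. FHIT and CNTNAP2 were each matched by 1 window, of 129 and 66, and the WWOX stretch by 14 of 70.

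In KO cells the longest stretches shortened in all 7 genes, to a median of 139 kb. This length depended on the KO list, since the median was 304.8 kb with as many KO as WT regions and 434.8 kb with 75% of that number. The ratio of WT to KO stretch ran from 1.49 in WWOX to 12.6 in IMMP2L. What remained was 566.8 kb in LRP1B (chr2:141689001-142255800), 265 kb in WWOX (chr16:78527201-78792200), 250.2 kb in FHIT (chr3:60584601-60834800), 139 kb in CNTNAP2 (chr7:146517801-146656800) and 135.6 kb in DLG2 (chr11:84010801-84146400). MACROD2 with 86.2 kb (chr20:14933001-15019200) and IMMP2L with 71.4 kb (chr7:110906001-110977400) had the shortest. Windows of the same length gave medians of 131 to 402 kb for WT and 64.9 to 105 kb for KO regions. The stretches of other windows were thus also shorter in KO cells. For KO regions IMMP2L was under the median of its windows and LRP1B was at 5.69 times it.

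Each of these KO stretches was also free of WT regions over its whole length, which makes it the longest interval of the gene without a nascent-strand region in either list. The lists record only regions that passed the calling, so that an interval without initiation cannot be told apart from one with few mapped reads or with DNA missing from the HCT116 genome. Read coverage and copy number were not analysed here.

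**Figure D3:**
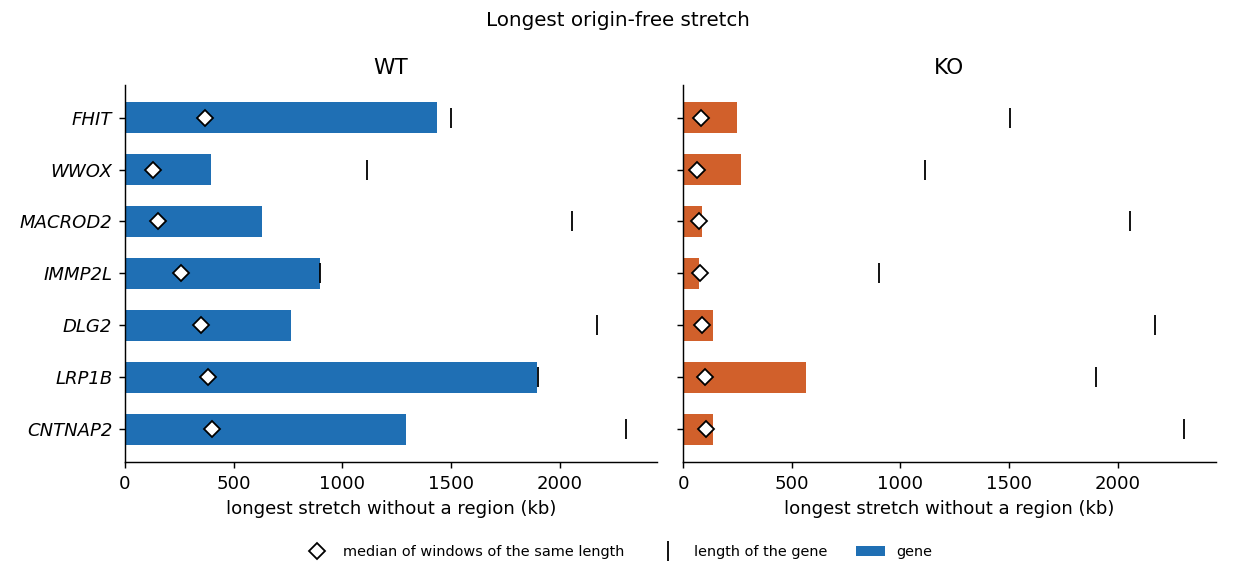
Longest stretch without a region in each gene (bars, kb) in WT and KO cells, with the median for windows of the same length along the rest of the chromosome (open diamonds) and the length of the gene (vertical ticks). WT bars reach the tick in LRP1B and IMMP2L, and the longest KO bar is the 566.8 kb of LRP1B.

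The KO regions were not spread evenly along the genes but became denser towards their 3' ends. Beyond the midpoint of the gene, KO regions covered more of the sequence than before it in 7 of 7 genes, with ratios of 1.19 to 7.83 and medians of 17.3% after and 8.58% before the midpoint. By centre, 332 of the 524 KO regions lay beyond the midpoint. The last 10% of the gene was covered more than the first 10% in every one of the 7 genes, from 10.4% against 5.40% in LRP1B to 79.2% against 22.8% in WWOX. The 500 kb upstream of the start and downstream of the end were covered at medians of 17.9% and 18.6%, both above the median before the midpoint. MACROD2 was an exception upstream, where 9.92% was covered against 13.0% before its midpoint. The comparisons of both ends and of both sides of the midpoint were not made for other windows, nor with the shortened KO list.

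After WWOX, FHIT and CNTNAP2 had the largest ratios, at 22.8% beyond against 9.43% before the midpoint and 14.0% against 5.45%. FHIT held 18 KO regions before its midpoint and 50 beyond it, and the highest-scoring KO region, 13000 bp wide with a score of 507, lay 1447 kb from the start (chr3:59783601-59796600). DLG2 and LRP1B were the most even, with 51 and 57 and with 14 and 19 regions before and beyond the midpoint. For WT regions the coverage was higher beyond the midpoint in 4 of 7 genes, and 39 of 61 regions had their centre there, 23 of them in WWOX.

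**Figure D4:**
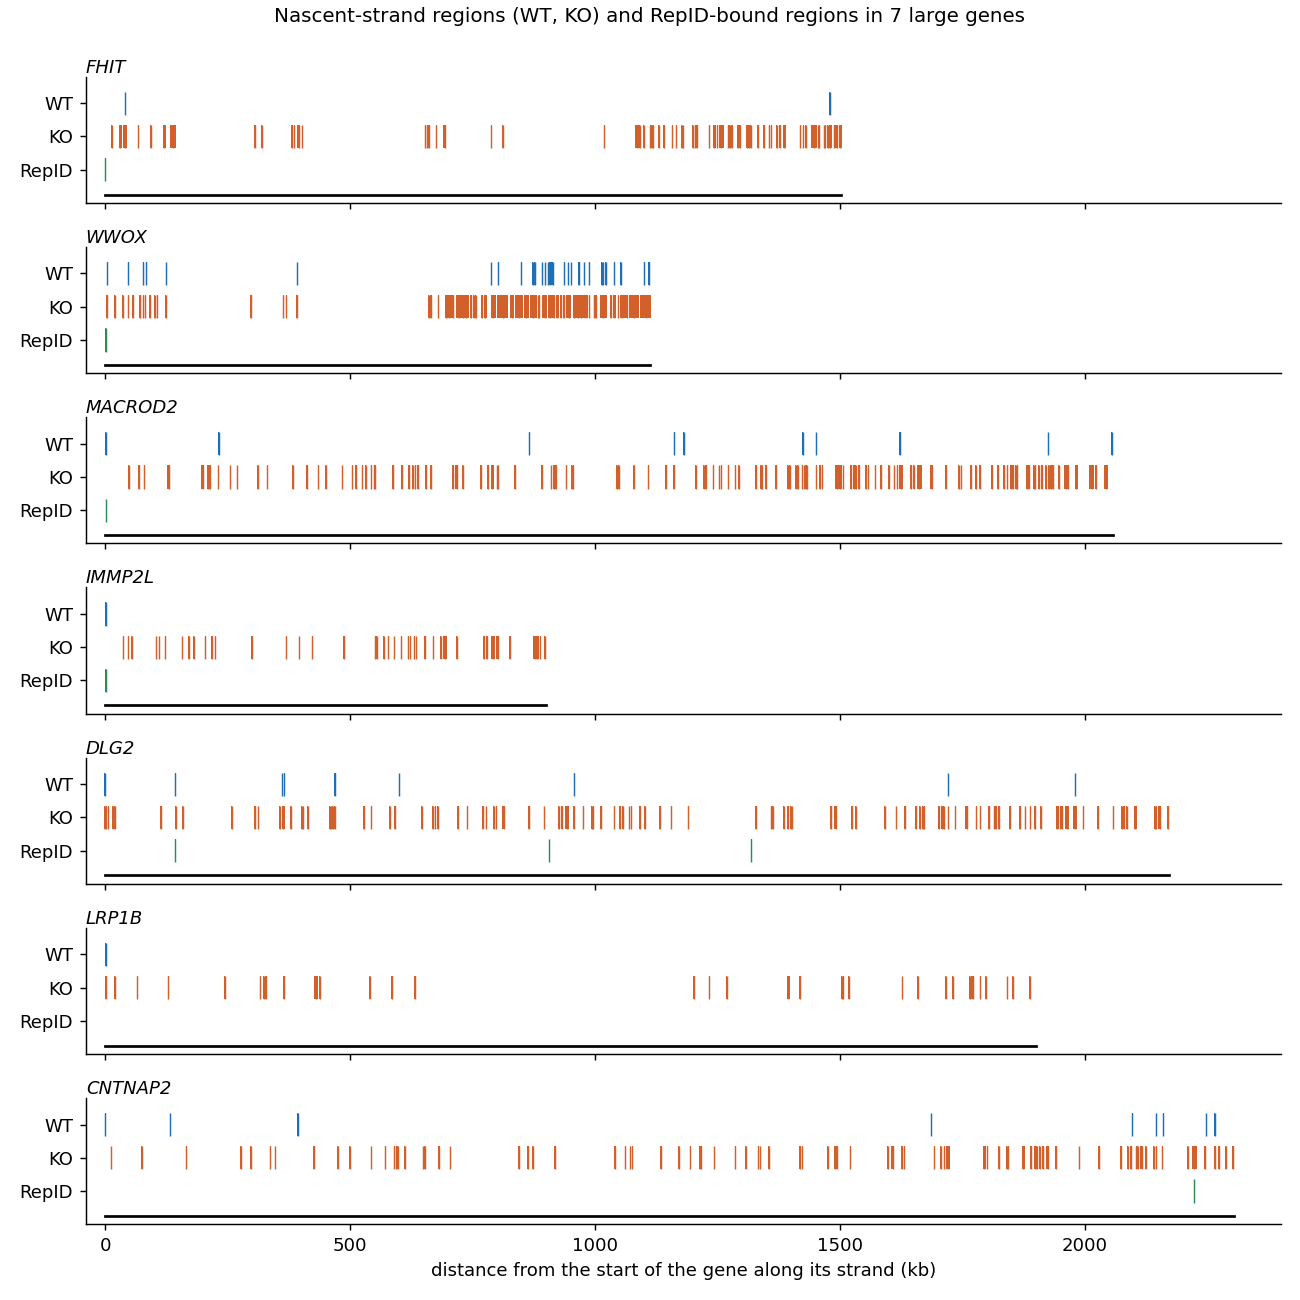
WT, KO and RepID regions along the 7 genes, each drawn as a tick at its position from the start of the gene in the direction of transcription (kb), with the gene as a black line. WT ticks are few outside WWOX, KO ticks crowd towards the right-hand ends, and 4 of 8 RepID ticks sit at the start of a gene.

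**Figure D5:**
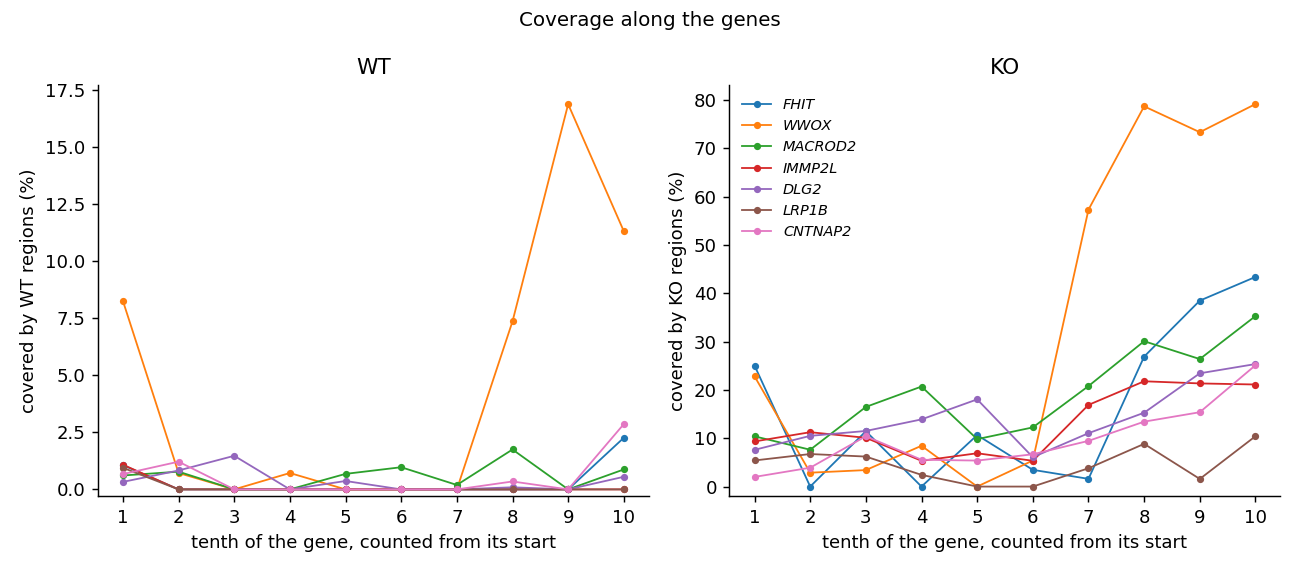
Share of each 10% of the length of the 7 genes covered by WT (left) and KO (right) regions, in percent, counted from the start of the gene, with different vertical scales. KO coverage is higher in the last than in the first 10% in all 7 genes and is highest in WWOX, at 79.2% at its 3' end.

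WWOX had 3 segments that differed in both lists. The first, 392 kb long, held 6 WT and 16 KO regions. The second, the longest WT-free stretch (chr16:78525201-78920800), held 15 KO regions, of which all but the first, shared with the segment before, lay beyond position 78792200. The third, from 78920801 to the end of the gene, was 325.8 kb long and held 23 of the 29 WT origins and 30 KO regions, which covered 79.0% of it. From the first to the third segment, KO regions rose from 10.2% to 79.0% in covered length and from 40.8 to 92.1 per Mb in number. For KO regions the change was therefore larger in covered length than in number. The segments were cut at the longest WT-free stretch, so that the WT difference between them follows in part from the cut.

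The KO regions of that last segment were wide, with a median of 7500 bp and a maximum of 23000 bp, and 19 of 30 were at or above percentile 90 of the KO list by score. The highest, 22800 bp wide with a score of 1418, was at chr16:78933201-78956000. All 23 WT origins there overlapped a KO region, and they were narrow (median 1600 bp) and low in score (median 64). With 79.0% of the segment covered by KO regions, an overlap was likely wherever a WT region lay. Of 271 windows of 325.8 kb in the rest of chromosome 16, 1 was covered as much by KO regions, and of 8527 on the autosomes 5 were. This segment was singled out after its values were seen. Because of it WWOX was the only 1 of the 7 genes covered more by KO regions than its chromosome, 33.1% against 23.7%.

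More than 50% of the initiation sites of WT cells were found again in KO cells. Of the 61 WT origins in the genes, 47 overlapped a KO region (77.0%, 64.5 to 86.8), against 61.4% of 24915 in the rest of the 6 chromosomes and 60.6% of the whole WT list. The difference of 15.6 percentage points (3.66 to 24.4) rested on WWOX, where 28 of 29 were kept. Of these, 23 lay in its last segment, where KO regions covered 79.0% and an overlap was likely at any position. Without WWOX the share was 59.4% (19 of 32) and the difference was -2.03 points (-19.2 to 13.1).

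The other genes ranged widely on small numbers. FHIT kept 2 of 2 WT origins, LRP1B 1 of 1, DLG2 8 of 9 and MACROD2 6 of 10. CNTNAP2 kept 2 of 9 (22.2%, 2.81 to 60.0), and IMMP2L kept 0 of 1. In the other direction, 477 of the 524 KO regions (91.0%) lay more than 2 kb from any WT region, against 62.8% in the rest of the chromosomes. A larger share follows from the low WT density of the genes, since fewer WT regions leave fewer positions near one.

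RepID regions were few in the genes. All 7 genes had fewer RepID regions per Mb than the rest of their chromosomes, as had 65.4% of the 1 Mb windows of the autosomes, and the summed ratio was 0.0672 (0.0290 to 0.132). Against the 1 Mb on either side it was 0.207. Windows of the gene's own length with as few RepID regions ranged from 0 of 27 for MACROD2 to 26 of 129 for FHIT and 53 of 172 for IMMP2L. DLG2 held 3 regions, and FHIT, WWOX, MACROD2, IMMP2L and CNTNAP2 held 1 each. LRP1B held 0, which allows up to 1.94 per Mb against 8.18 on chromosome 2. The RepID regions that were present were of ordinary strength, with a median score of 227 against 204 elsewhere.

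Of the 8 RepID regions, 4 lay within the first 10 kb of a gene. A RepID region covered the start of FHIT (chr3:61236484-61237220, score 440.4) and WWOX (chr16:78133234-78134135, 409.8). It lay 354 bp from the start of MACROD2 (chr20:13976501-13977092, 259.7), 225 bp from that of IMMP2L (chr7:111201916-111202347, 135.8) and 515 bp from that of DLG2 (chr11:85338830-85339492, 204.5), the last one upstream and so outside the gene. In all, 5 of 7 starts had a RepID region within 2 kb, whereas the nearest to LRP1B was 2200 kb away and the nearest to CNTNAP2 1281 kb. The share over all gene starts, for RepID as for the nascent-strand lists, was not computed, since no annotation on hg19 was used here.

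The 250 bases before the outermost RefSeq start are given for the genes with a RepID region near it and for CNTNAP2, which had none. They are on GRCh38.p14, not on the build of the lists, 5' to 3' on the strand of the gene. Capitals mark GGGCGG and GGGAGGG, searched on both strands and counted separately. GGGAGGG occurs in the AG-rich sequence of the beta-globin replicator at which the study found RepID binding. GGGCGG is a further G-rich string that this AG-rich sequence does not hold. The promoter table held 6 of the 7 genes, and LRP1B is named only.
FHIT (chr3:61251453-61251702, minus strand): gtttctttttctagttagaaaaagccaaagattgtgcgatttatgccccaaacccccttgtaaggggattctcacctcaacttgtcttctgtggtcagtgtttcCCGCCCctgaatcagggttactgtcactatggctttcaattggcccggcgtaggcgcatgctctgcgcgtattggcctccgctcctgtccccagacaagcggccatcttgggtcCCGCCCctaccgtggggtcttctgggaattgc
WWOX (chr16:78099404-78099653, plus strand): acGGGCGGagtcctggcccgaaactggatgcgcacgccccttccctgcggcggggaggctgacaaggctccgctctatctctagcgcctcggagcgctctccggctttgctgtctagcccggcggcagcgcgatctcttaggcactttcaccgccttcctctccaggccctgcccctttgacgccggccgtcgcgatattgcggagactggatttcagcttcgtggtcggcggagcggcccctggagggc
MACROD2 (chr20:13995266-13995515, plus strand): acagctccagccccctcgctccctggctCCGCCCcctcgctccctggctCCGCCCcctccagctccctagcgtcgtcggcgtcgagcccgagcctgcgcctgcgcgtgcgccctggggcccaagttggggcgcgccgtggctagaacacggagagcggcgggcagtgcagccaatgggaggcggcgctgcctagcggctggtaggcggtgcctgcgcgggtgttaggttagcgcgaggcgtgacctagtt
IMMP2L (chr7:111562493-111562742, minus strand): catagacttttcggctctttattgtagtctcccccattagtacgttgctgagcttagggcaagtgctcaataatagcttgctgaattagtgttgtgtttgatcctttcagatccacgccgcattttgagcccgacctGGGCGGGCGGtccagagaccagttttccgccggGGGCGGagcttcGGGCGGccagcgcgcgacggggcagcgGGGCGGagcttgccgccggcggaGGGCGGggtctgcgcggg
DLG2 (chr11:85628374-85628623, minus strand): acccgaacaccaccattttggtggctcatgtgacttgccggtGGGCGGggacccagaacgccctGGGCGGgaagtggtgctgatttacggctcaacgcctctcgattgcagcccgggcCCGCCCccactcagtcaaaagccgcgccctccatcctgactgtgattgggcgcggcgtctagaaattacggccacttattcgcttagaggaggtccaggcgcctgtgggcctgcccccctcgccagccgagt
CNTNAP2 (chr7:146116551-146116800, plus strand): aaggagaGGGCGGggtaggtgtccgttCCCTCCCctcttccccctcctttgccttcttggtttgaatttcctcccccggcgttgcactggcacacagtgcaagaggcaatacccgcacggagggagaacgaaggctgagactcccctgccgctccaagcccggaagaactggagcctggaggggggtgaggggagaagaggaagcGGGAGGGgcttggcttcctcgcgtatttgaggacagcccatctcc

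GGGCGG was found in all 6 of these sequences, at 6 places in IMMP2L, 3 in DLG2, 2 in FHIT and in MACROD2, and 1 in WWOX and in CNTNAP2. It was present in 42.6% of 35116 promoters of the same length. GGGAGGG, present in 24.7% of promoters, was found only in CNTNAP2, at 2 places. How far these 250 bases overlap the DNA bound by RepID was not determined. They are on another build and precede the RefSeq start, which can differ from the start in the rule used here. The RefSeq length minus that of the rule was 1103 bp in DLG2 and -224 bp in WWOX. Measured from the starts in the rule, RepID regions lay inside MACROD2 and IMMP2L and 515 bp upstream of DLG2. At FHIT and WWOX they covered the start. The 250 bases may thus hold bound DNA in some of these genes. The presence or absence of a string here therefore cannot separate bound from unbound starts. The GC content was 54% in FHIT and 61.6 to 73.2% in the other five, where the median promoter had 58%. A match describes the letters and is not a binding site, and the limits of a gene in RefSeq and in the rule used here differ by up to 2078 bp in length.

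A WT origin covered 4 of the 7 starts and lay within 2 kb of 5. It covered those of MACROD2, IMMP2L, DLG2 and CNTNAP2, was 69 bp from that of LRP1B and 2473 bp from that of WWOX, and was 39.3 kb from that of FHIT. In IMMP2L and LRP1B the origin at the start was the only one of the gene (chr7:111201601-111202600, score 49, and chr2:142887401-142889200, score 180). The start of FHIT was thus bound by RepID with no WT origin near, and those of LRP1B and CNTNAP2 had a WT origin with no RepID near.

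KO regions covered 2 starts, those of DLG2 and LRP1B, with WWOX next at 2273 bp. At the others the nearest KO region was 7.23 kb away in IMMP2L, 10.5 kb in CNTNAP2, 11.9 kb in FHIT and 39.5 kb in MACROD2. By centre, 5 of 524 KO regions, 6 of 61 WT origins and 4 of 8 RepID regions were within the first 10 kb, which makes up 0.586% of the length of the genes.

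The origins at the starts therefore differed in whether they were kept. With RepID within 2 kb, the origins at the starts of MACROD2 (chr20:13975601-13977400, score 212) and IMMP2L overlapped no KO region. Those of DLG2 (chr11:85338201-85340200, score 213) and WWOX (chr16:78135801-78138200, score 115) did. Without RepID, the origin of LRP1B was kept and that of CNTNAP2 (chr7:145812401-145813800, score 139) was not. With 6 origins these counts cannot separate bound from unbound starts.

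Of the 8 RepID regions, 4 were within 2 kb of a WT origin (50%, 15.7 to 84.3), against 90.6% in the rest of the chromosomes, and of the 61 WT origins 5 were within 2 kb of a RepID region (8.20%, 2.72 to 18.1), against 18.7%. Both shares depend on how many WT and RepID regions lie in the genes, which were few. In CNTNAP2 the single region (chr7:148036513-148036891, score 119.6) lay inside the highest-scoring KO region of the gene, 11000 bp wide with a score of 420, and 23.9 kb from the nearest WT origin. In DLG2 a pair of regions (chr11:84018411-84018974, score 194, and chr11:84431399-84431717, score 181.4) were over 2 kb from any WT origin.

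DLG2 held the 1 interior site at which regions of all 3 lists overlapped. A RepID region of 349 bp (chr11:85194949-85195297, score 425.5) lay inside a WT region of 600 bp (chr11:85194801-85195400) and a KO region of 1200 bp (chr11:85194201-85195400), 143 kb from the start of the gene. The WT score was 1643 and the KO score 1155, where the median WT score in the genes was 64. Among 4397 WT regions no wider, 2 scored as high, this one included, and among 16103 KO regions no wider, 5 did. No other region as narrow in the 7 genes scored near these values. Read coverage, mapping and copy number were not analysed at this site either, so that its scores do not show how much initiation took place there.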

How the data were processed

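The authors deposited 3 lists of enriched regions, 1 per library, each with positions on hg19 and a score. The RepID score is that of MACS. Of the nascent-strand lists the score is a whole number whose meaning is not stated, and all their limits lie on a 200-bp grid. MACS and SICER are named in the submitters' processing notes, and the programme used for the HCT116 lists is not given in the sources used here. The 7 genes and the measures were chosen with earlier results of these data known, and another gene of the list of 8 is not reported here. A region belonged to a gene at an overlap of 1 bp. Density was set against the rest of the chromosome between its first and last region, and stretches against windows of the gene's own length, leaving out windows with 2 Mb or more, or all of their length, without a region in any list. Named regions were drawn from the longest stretches, the highest-scoring regions and those nearest a start, and from all regions where a list had 5 or fewer in a gene. Exact binomial intervals were used for shares and densities and Newcombe intervals for differences. Functions were checked on simulated data against bedtools 2.31.1. Python 3.11.15, numpy 2.4.6, pandas 2.3.3, SciPy 1.17.1 and matplotlib 3.10.9 were used. Other genes of this length were not analysed here, since no annotation on hg19 was used.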

Additional observations from a re-analysis of the deposited data

How the results depend on the processing

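The directions of the 4 density results of the 7 genes held under every alternative run. The sizes depended on score and background. With regions scoring at or above the median of their list, the WT ratio to the rest of the chromosomes was 0.0420, the KO ratio 0.595, the relative KO to WT ratio 14.2 and the median longest stretch 1898.4 kb for WT and 304.8 kb for KO. With 1 Mb on either side as background, the WT ratio was 0.306, the RepID ratio 0.207 and the relative KO to WT ratio 2.52. By base pairs covered, the WT ratio was 0.0606 and the relative KO to WT ratio 11.8. With the KO list limited to as many regions as the WT list, the median longest KO stretch was 304.8 kb and the kept share of WT origins 57.4%.

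The following alternatives were chosen after seeing the data. Without WWOX, the WT ratio was 0.0967, the relative KO to WT ratio 7.50 and the kept share 59.4%. With the KO list limited to 75% of the WT number, the relative KO to WT ratio was 3.50 and the median longest KO stretch 434.8 kb. Without the first 10 kb of each gene the RepID ratio was 0.0338, inside its interval. In all, 25 of 42 values lay inside the counting interval of the reported value, or within 1.5 times it for the stretches.

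Gene by gene, WT density stayed below the background in 42 of 42 values and KO density in 39 of 42. MACROD2 exceeded it against its flanks (1.10) and WWOX by base pairs covered (1.40) and among high-scoring regions (1.07). No paired analysis was possible because each condition had 1 library and no test was made. The intervals are too narrow where neighbouring regions depend on each other. The unknown depth limits every comparison of the WT with the KO list, and the absence of a region does not show the absence of initiation.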
